A study of Mus musculus with 6 samples.

Results

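Heat shock chaperones are the proteins that bind unfolded or newly made polypeptides and help them fold, assemble or be degraded, and 76 of the 19057 genes measured here carry such names. They were taken by name from the platform annotation, as every gene whose symbol begins with Hsp, with Dnaja, Dnajb or Dnajc, or with Cct2 to Cct8, together with Tcp1. Hsp90b1, Hspa5 and Dnajb9, which act in the endoplasmic reticulum, were left out by the same rule. The names covered 147 of the 34885 probes with 1 gene symbol. Hsf1 and Hsp90ab1 also meet the rule but no probe of the table used here carried their names, so neither was analysed here. The data were 6 Illumina bead arrays, 3 of control and 3 of Klf4-deficient leukemia cells of male mice. In all 6 samples T cell acute lymphoblastic leukemia had been driven by NOTCH1, and GFP+CD4+CD8+ cells were sorted from the bone marrow 4 weeks after transplantation. The labels do not say how Klf4 was removed, which strain and age the mice had, or whether a sample is 1 animal or a pool. Nothing in the labels says that the arrays of a group come from different animals, so p-values measure only the spread between these samples, which may be technical.

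In the cytosol, Hsp70 proteins take up unfolded chains with the help of J-domain proteins, which deliver the client and start ATP hydrolysis on Hsp70, and Hsp110 proteins such as Hsph1 then release the nucleotide. Hsp90 receives part of these clients from Hsp70 and finishes the folding of kinases and receptors, among them many that leukemia cells depend on. Chaperonins are closed barrels: the cytosolic CCT ring folds actin and tubulin, and the mitochondrial barrel of Hspd1 and its lid Hspe1 folds imported proteins. Under proteotoxic stress the factor Hsf1 binds inverted repeats of the bases GAA, known as heat shock elements, and raises transcription of many of these genes.

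The promoters of a few members show this element and are printed to show where it stands. The element was searched as 3 alternating units, GAA and its reverse complement TTC with 2 free bases between them, on both strands, in windows from 250 bases before to 50 after the start in RefSeq's promoter table (GRCm38.p6). A pair of units reads GAANNTTC or TTCNNGAA, and every match to the 3 units contains overlapping pairs. Windows were found for 63 of the 76 members. The 3 units stood in 4 of the 63 members (6.35%), Hspe1, Hspd1, Hsph1 and Dnajb6, against 179 of all 27025 genes of the table (0.662%). A pair stood in 19 of the 63 (30.2%) against 17% of all genes. Capitals mark the 3 units, and where matches overlap the capitals run on. The sequences read 5′ to 3′ on the strand of the gene and lie at chr1:55087898-55088197 on the plus strand (Hspe1), chr5:149636266-149636565 on the minus strand (Hsph1) and chr5:29735648-29735947 on the plus strand (Dnajb6).
Hspe1: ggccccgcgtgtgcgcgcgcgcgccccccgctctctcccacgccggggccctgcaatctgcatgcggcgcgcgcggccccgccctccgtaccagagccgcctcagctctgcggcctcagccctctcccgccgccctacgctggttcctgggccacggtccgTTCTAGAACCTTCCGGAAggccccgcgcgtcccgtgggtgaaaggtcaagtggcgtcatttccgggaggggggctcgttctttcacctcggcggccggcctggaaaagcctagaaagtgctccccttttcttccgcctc
Hsph1: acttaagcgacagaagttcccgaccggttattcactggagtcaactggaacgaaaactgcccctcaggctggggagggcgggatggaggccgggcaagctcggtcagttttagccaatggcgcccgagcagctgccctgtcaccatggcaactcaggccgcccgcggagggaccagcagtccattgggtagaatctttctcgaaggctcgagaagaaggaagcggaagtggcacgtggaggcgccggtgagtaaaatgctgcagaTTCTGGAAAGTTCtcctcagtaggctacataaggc
Dnajb6: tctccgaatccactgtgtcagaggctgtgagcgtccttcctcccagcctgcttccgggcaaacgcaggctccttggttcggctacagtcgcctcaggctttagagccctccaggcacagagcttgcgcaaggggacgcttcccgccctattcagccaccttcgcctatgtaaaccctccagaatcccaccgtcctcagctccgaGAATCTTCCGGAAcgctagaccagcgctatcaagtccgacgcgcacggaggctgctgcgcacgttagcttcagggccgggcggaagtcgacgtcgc
Hspe1 and Hspd1 are transcribed away from each other, and their windows share 285 bases, so 1 element lies in both. A match is a description of the letters, not a measured binding site.

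The negative values of each array set a background limit, between 21.8 and 23.7 in signal, and 37.9% to 38.5% of the probes exceeded it. A gene is called readable here when its probe exceeded the limit on all 6 arrays. The Klf4 probe read 44, 18.4 and 24.6 in the controls but 80.6, 46 and 85.4 in the arrays labelled Klf4-deficient, against that label. Where the probe lies in Klf4 and which bases were deleted is not known here, so the group is called by its label only and each direction below rests on the labels. Of 15 measured double-positive T cell markers 14 were above background on all 6 arrays, among them Cd4, Cd3e, Cd8b1 and Rag1, while the dim Cd8a probe was above it on 3 of 3 control and 1 of 3 Klf4-deficient arrays. The summed signal of the 15 markers ran from 130079 to 141160 in controls and from 112577 to 132597 in Klf4-deficient arrays. Klf4-deficient array 3 stood apart, with a mean probe signal of 359 against 417 to 445 on the others and the highest erythroid, macrophage and neutrophil markers. Values below are given in the order of arrays 1, 2 and 3 of a group.

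No chaperone gene passed the test between the groups. Of the 76 members 0 had an adjusted p under 0.05 in limma, against 2 of all 19057 genes (0.0105%). The smallest adjusted p of a member was 0.450, for Hspe1. At an unadjusted p under 0.05, 6 members (7.89%) were higher and 2 (2.63%) lower in the Klf4-deficient arrays, where 3.51% and 4.09% of all genes were. All Klf4-deficient arrays lay above all controls for 7 members (9.21%) and below them for 4 (5.26%), against 5.48% and 6.09% of all genes. Among the 7, Cct7 and Dnajc5g were above background on no array. Members divided evenly around 0, with 36 differences above 0, 37 below 0 and 3 at 0, and their median log2 difference was 0, as it was over all genes. Signals come from bulk RNA, so fewer cells of a type and less RNA per cell cannot be told apart.

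Of the members, 48 were readable on all 6 arrays, 10 exceeded the limit on some arrays and 18 on none. Among the 48, groups did not overlap for 5 (10.4%) higher and 4 (8.33%) lower, beside 7.49% and 10.1% of the 8361 genes that are above background on all arrays. The 5 were Hspe1, Hsp90aa1, Dnajb1, Hspa4l and Hspa8, and the 4 were Dnajc10, Dnajc11, Dnajc24 and Dnajc18. Both shares are near those of all readable genes, and Dnajc genes, to which the 4 belong, made up 21 of the 48. These counts lean on how arrays are scaled: over all 76 members they were 4 higher and 4 lower with arrays centred on their median, where 4.17% and 5.63% of all genes were, and 3 higher and 8 lower with no normalization, where 3.09% and 7.46% were. With no normalization the median of the genes above background on all arrays also shifted, to -0.11.

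**Figure D1:**
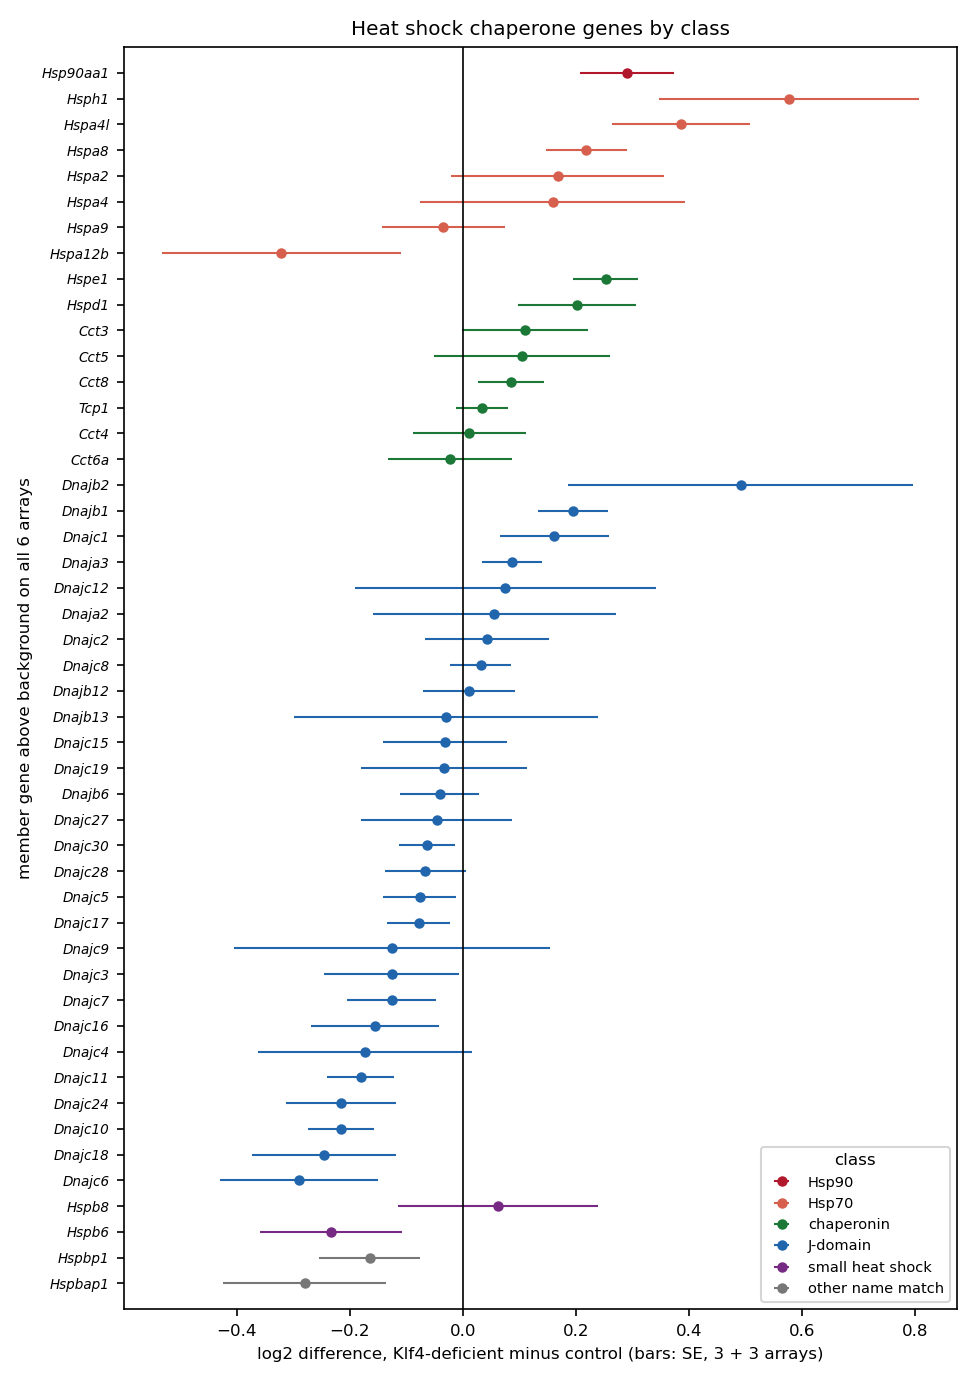
Log2 difference (horizontal axis, Klf4-deficient minus control, quantile normalized) of the 48 member genes above background on all 6 arrays, ordered within classes, with bars for the SE over 3 and 3 arrays. The Hsp90 point and 7 of 8 chaperonin points lie right of 0, and 19 of 28 J-domain points lie left of it. Of all 8361 readable genes 47.4% lie above 0 and 52.6% below. Of the 48, 0 passed the adjusted threshold.

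The Hsp90 class was 1 gene, Hsp90aa1, which encodes the stress-inducible cytosolic Hsp90 alpha. It read 179.5, 147.3 and 154.1 in controls against 213, 181.6 and 172.4 in the Klf4-deficient group. Before normalization Klf4-deficient array 3 lay below control array 1, and after it the groups did not overlap, with log2 values from 7.36 to 7.51 and from 7.58 to 7.83. Hsp90aa1 differed by 0.29 ± 0.08 (SE, 1.22-fold) on the log2 scale and did not pass (95% interval 0.07 to 0.51, adjusted p = 0.540 in limma). A second probe of the gene, with signals of 46.3, 33.5 and 46 in controls and 69.2, 56.6 and 46.6 in Klf4-deficient ones, differed by 0.39 ± 0.15. The third Hsp90aa1 probe was under the limit on every array. Both readable probes thus leaned the same way, and Klf4-deficient array 3 was the lowest of its group on both in signal.

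In the Hsp70 class 9 of 13 genes had differences above 0 and 4 below, with a median of 0.16. Of all genes 45.4% lay above 0 and 44.9% below, with a median of 0. In limma 0 were called and 2 of the 13 were higher and 0 lower by unadjusted p (under 0.05), beside 3.51% and 4.09% of all genes. The median stayed above 0 under each scaling tried, and was 0.04 without Klf4-deficient array 1, 0.06 without control array 3 and 0.03 with the mean of each gene's probes. Of the 13 genes, 6 were not readable, and of the 7 readable ones 5 lay above 0 and 2 below. Of all readable genes 47.4% lay above 0 and 52.6% below.

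Hspa8, the constitutive cytosolic Hsp70 that serves most folding in unstressed cells, read 18977, 17286 and 19149 in controls and 21891, 19557 and 19238 in the group labelled Klf4-deficient. Each Klf4-deficient array lay above each control array, also before normalization, where array 3 did so by a small margin. The log2 difference was 0.22 ± 0.07 (SE), and it did not pass (adjusted p = 0.580 in limma). The other Hspa8 probes differed by 0.62 ± 0.20 and 0.23 ± 0.12. The first of these had signals of 3004, 1987 and 2365 in controls against 3996, 2978 and 3441, and its groups overlapped before normalization only. The mean of the probes gave 0.35.

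Hspa4l, an Hsp110-type exchange factor for Hsp70, gave 283.2, 346.4 and 344 in controls and 425.5, 397.9 and 365.3 in the other group. Its groups did not overlap on either scale, and control array 1 was the lowest. It differed by 0.39 ± 0.12 (SE, adjusted p = 0.571 in limma). The other 2 Hspa4l probes were under the limit on every array, which brings the mean over its probes to 0.03.

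Hsph1, which encodes Hsp105, had the highest difference of the 48 readable members. Hsph1 read 809.6, 560.2 and 733.3 in controls against 1073, 783.5 and 1079. Klf4-deficient arrays 1 and 3 lay above all controls, and array 2 lay level with control array 1. The log2 difference was 0.58 ± 0.23 (SE, 1.49-fold, 95% interval -0.02 to 1.18, adjusted p = 0.681 in limma). Leaving out array 3 of that group gave 0.41, and leaving out array 2 gave 0.78.

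Other readable Hsp70 genes lay closer to 0 or varied more. Hspa9, the mitochondrial Hsp70 that pulls proteins through the inner membrane, differed by -0.03 ± 0.11 and its second probe by -0.05 ± 0.06. The sign of the Hspa9 difference turned when array 3 of either group was left out (0.03 for the control array and 0.05 for the other). Hspa4, another Hsp110-type gene, differed by 0.16 ± 0.23, with signals of 62.4, 57 and 46.1 against 44.3, 87.5 and 54, so that Klf4-deficient array 2 alone stood above the rest. Hspa2, known from the testis, differed by 0.17 ± 0.19, and the divergent Hspa12b by -0.32 ± 0.21.

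The stress-inducible pair Hspa1a and Hspa1b, whose near-identical sequences make their probes uncertain, was close to background. The highest of 3 Hspa1a probes read 32.4, -6.5 and 0.5 in controls and 24.9, 8.1 and 88.3 in the other group, above the limit on 1 of 3 and 2 of 3 arrays. The brighter Hspa1b probe read 24.6, 5.1 and 22.2 against 7.3, 0.7 and 8.8, above the limit on 1 of 3 and 0 of 3. Apart from the Hspa1a signal of 88.3 on Klf4-deficient array 3, these values lie near or under the limit, and no fold is given. Hspa14, a ribosome-associated Hsp70, was not above background on any array.

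Among the chaperonins 9 of 12 genes had differences above 0 and 3 below, with a median of 0.06. Of the 8 readable ones 7 lay above 0 and 1 below, beside 47.4% and 52.6% of all readable genes. In limma 0 were called, and by unadjusted p (under 0.05) 2 of the 12 were higher and 0 lower, beside 3.51% and 4.09% of all genes. The 2 were Hspe1 and Cct7, which was above background on no array. Without normalization between arrays the median of the class turned to -0.02. Of the mitochondrial pair, Hspe1 lay at 0.25 and Hspd1 at 0.20, and the 6 readable CCT genes lay between -0.02 and 0.11. The difference between the pair and the ring was not tested.

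Hspe1, the mitochondrial co-chaperonin, read 199.9, 156.2 and 182.8 in controls and 215, 215.5 and 181.4 in the Klf4-deficient group. Array 3 was within the control range before normalization and above it afterwards, where log2 values ran from 7.48 to 7.66 in controls and from 7.80 to 7.84 in Klf4-deficient ones. The difference was 0.25 ± 0.06 (SE, 1.19-fold, 95% interval 0.10 to 0.40), with the smallest unadjusted p of all members (0.0079), and it did not pass (adjusted p = 0.450 in limma).

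Hspd1, the barrel itself, gave 1780, 1424 and 1536 in controls and 1950, 1613 and 1487 in Klf4-deficient ones, and the groups overlapped. It differed by 0.20 ± 0.10 (SE, adjusted p = 0.755 in limma). A second, dimmer Hspd1 probe pointed the other way, at -0.19 ± 0.14, reading 274.4 on Klf4-deficient array 3 but between 426.4 and 488.5 elsewhere. The mean of its probes was 0.01, so the direction of Hspd1 depends on the probe.

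The readable CCT subunits were close to level between the groups. Tcp1, the founding subunit, gave 2989, 2943 and 2894 against 3021, 2930 and 2444, and differed by 0.03 ± 0.05 with a 95% interval from -0.09 to 0.15. Cct8 differed by 0.09 ± 0.06, Cct3 by 0.11 ± 0.11, Cct5 by 0.10 ± 0.16, Cct4 by 0.01 ± 0.10 and Cct6a by -0.02 ± 0.11. The signs of Tcp1, Cct4 and Cct8 turned with no normalization (-0.08, -0.08 and -0.02), those of Tcp1 and Cct4 also with centring on the median (-0.05 and -0.06), and that of Cct6a with cyclic loess (0.003). The interval of Cct8 ran from -0.07 to 0.24, and those of Cct3, Cct4, Cct5 and Cct6a were wider. Cct2 and Cct7 were each measured by 1 probe that read at most 25.2 and 14.9, above the limit on 1 array and on none, so the ring was read in 6 of its 8 subunits. Cct6b and Cct8l1, relatives known from the testis, were above background on no array.

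J-domain genes made up 39 of the 76 members and leaned the other way. Their differences were above 0 for 12, below 0 for 25 and at 0 for 2, with a median of -0.06. In limma 0 were called, and by unadjusted p (under 0.05) 1 of the 39 was higher and 2 lower, near the 3.51% and 4.09% of all genes. The median was below 0 under each scaling tried. Among all genes 45.4% were above 0 and 44.9% below. Of the 28 readable J-domain genes 9 were above 0 and 19 below, beside 47.4% and 52.6% of all readable genes. By type, 2 of 3 Dnaja genes, 3 of 11 Dnajb genes and 7 of 25 Dnajc genes lay above 0. Median centring and no normalization moved the J-domain median to -0.12 and -0.14. These settings moved the median of all genes to -0.007 and -0.03. They moved that of all readable genes to -0.08 and -0.11.

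Dnajb1, the Hsf1-inducible Hsp40 and a main partner of Hspa8, was the J-domain gene with the smallest p on the higher side. Dnajb1 read 5470, 5585 and 5623 in controls and 6760, 6314 and 4951 in the Klf4-deficient group, so that array 3 was the lowest of all 6 before normalization. After it, its log2 values ran from 12.37 to 12.45 in controls and from 12.52 to 12.71 in Klf4-deficient ones. The log2 difference was 0.19 ± 0.06 (SE, adjusted p = 0.569 in limma), and with no normalization it was 0.10.

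Dnaja2 differed by 0.06 ± 0.21 and Dnaja3, the mitochondrial partner of Hspa9, by 0.09 ± 0.05. Both signs turned with no normalization (-0.02 for each). The brighter Dnaja1 probe read at most 27.7 and was above the limit on 1 of 6 arrays, so this partner of Hspa8 could not be read. Dnajb6, which keeps aggregation-prone chains soluble, differed by -0.04 ± 0.07 and its 4 readable probes lay between -0.22 and -0.04. On 1 of these Dnajb6 probes, at -0.22 ± 0.12, the normalized groups did not overlap, with log2 values from 9.01 to 9.12 in controls and from 8.58 to 8.99 in Klf4-deficient arrays. Dnajb2, known from neurons, differed by 0.49 ± 0.31, carried by Klf4-deficient array 3 with a signal of 289.1 against 132.4 to 197.8 on the other arrays.

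On the lower side Dnajc10 had the smallest p. It encodes ERdj5, a disulfide reductase of the endoplasmic reticulum, which places it outside the cytosol and mitochondria. Dnajc10 gave 1628, 1696 and 1734 in controls and 1361, 1512 and 1163 in Klf4-deficient ones, and the groups did not overlap before or after normalization. It differed by -0.22 ± 0.06 (SE, 95% interval -0.37 to -0.06, adjusted p = 0.524 in limma), and a second readable probe by -0.21 ± 0.20.

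Dnajc11, a protein of the mitochondrial cristae junctions, gave 228.6, 208.7 and 242.1 against 203.9, 196.9 and 159.4, also without overlap. It differed by -0.18 ± 0.06 (SE, adjusted p = 0.580 in limma). Its 3 other probes were above background on some arrays or none, and with them averaged in the sign turned (0.10). Dnajc24, which takes part in diphthamide synthesis on elongation factor 2, gave 684.1, 732.7 and 620.6 against 556.6, 601.1 and 466.3 and differed by -0.22 ± 0.10. Dnajc18 gave 61, 59.2 and 55.4 against 44.6, 54 and 36.5 and differed by -0.25 ± 0.13. In each of these genes the lowest signal was that of Klf4-deficient array 3.

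Dnajc6, which encodes auxilin, the factor that lets Hsp70 strip clathrin from vesicles, overlapped between the groups on its brightest probe and did not on the second. The first gave 2033, 2231 and 2285 in controls and 1484, 2110 and 1442 in Klf4-deficient ones, where array 2 lay within the control range. It differed by -0.29 ± 0.14 (SE, adjusted p = 0.743 in limma), by -0.18 with array 1 of that group left out, and by -0.25 ± 0.16 on its second probe. That probe read 1468, 1389 and 1382 in controls against 909.4, 1340 and 1058, without overlap before or after normalization. Dnajc7, a co-chaperone that binds both Hsp70 and Hsp90, differed by -0.13 ± 0.08, and Dnajc1, a J protein of the endoplasmic reticulum, by 0.16 ± 0.10.

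**Figure D2:**
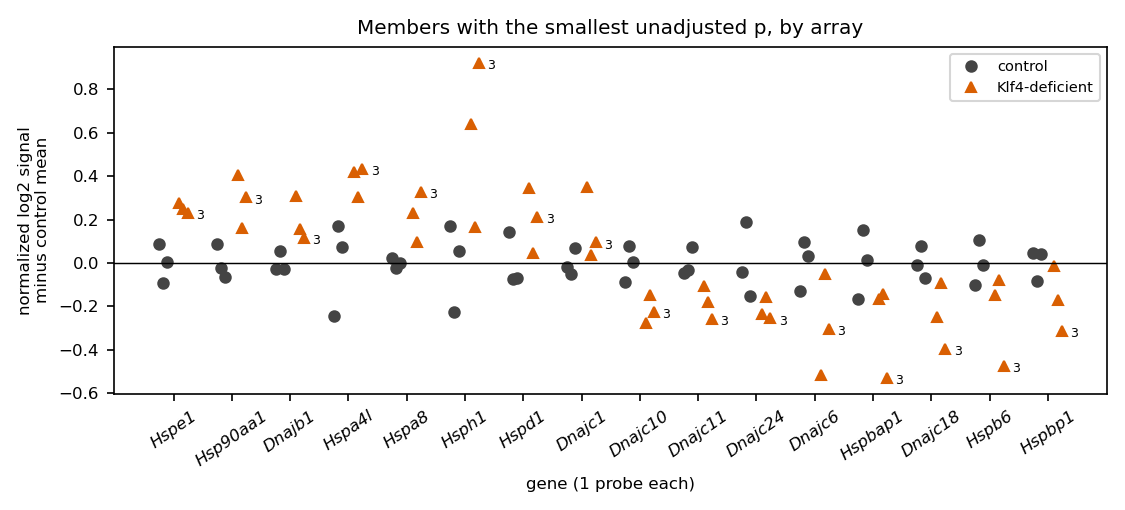
Normalized log2 signal of each array minus the control mean (vertical axis) for the 8 readable members on each side with the smallest unadjusted p, so the sign of each gene is set by this choice. Circles are control arrays, triangles Klf4-deficient arrays with array 3 marked; Hsph1 spreads most on the higher side, and array 3 is the lowest triangle for Hspbap1 and Hspb6.

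Several members lie outside the cytosol and mitochondria. Of these, 10, of which 9 are J-domain genes, act in or at the endoplasmic reticulum, and these 10 had a median of -0.06, with 4 above 0 and 6 at or below it. The 8 mitochondrial members, all readable on 6 arrays, had a median of -0.03, from -0.18 for Dnajc11 to 0.25 for Hspe1. The 34 members assigned to the cytosol or nucleus had a median of 0.05, with 23 above 0 and 11 below. The 24 members not assigned to a compartment had a median of -0.07, with 6 above 0 and 16 below. They include Dnajc24, Hspbp1 and Hspb6, which lay below 0, so the medians by compartment depend on which members were assigned. Hspg2 encodes perlecan, a matrix proteoglycan, and Hspb11 a protein of intraflagellar transport, and neither was above background on more than 1 array. Hspbp1, a nucleotide exchange factor of Hsp70, differed by -0.16 ± 0.09, and Hspbap1, named for binding a small heat shock protein, by -0.28 ± 0.14.

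Small heat shock proteins, which hold unfolded chains without ATP, were mostly not readable. Of 7 genes, Hspb6 and Hspb8 were above background on all arrays. Hspb6 gave 1137, 1217 and 1209 against 1047, 1119 and 702.9, and differed by -0.23 ± 0.12, while Hspb8 differed by 0.06 ± 0.18. Hspb1, the stress-inducible Hsp27 counterpart, read at most 22.5 and was above the limit on 1 array, Klf4-deficient array 3.

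Probes of the same gene give a measure of how far single values can be trusted. Of 17 members with more than 1 readable probe, 11 had all probes on the same side of 0 and 6 did not. The 11 include Hsp90aa1, Hspa8, Dnajc10 and Dnajc6. The 6 were Cct3, Dnaja3, Dnajc19, Dnajc2, Hspd1 and Tcp1, each with differences between -0.19 and 0.20 on all their readable probes. When all 34885 probes were fitted, 0 of the 147 member probes were called in limma, against 1 of all probes (0.00287%). By unadjusted p (under 0.05) 7 were higher and 2 lower, where 2.76% and 3.52% of all probes were.

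By array, the classes differed in how their Klf4-deficient values stood to the controls. Over readable members, the Hsp70 median relative to the control mean was 0.23, 0.13 and 0.10 on the Klf4-deficient side, against -0.02 to 0.05 in controls, without overlap. Over all 13 Hsp70 genes it was 0.19, 0.06 and 0.10 against -0.07 to 0.09, so there array 2 lay inside the control range. Hsp90aa1 lay at 0.41, 0.16 and 0.30 against -0.06 to 0.09. The chaperonin median was 0.20 in Klf4-deficient array 1 and 0.02 and 0.01 in the other arrays of that group, inside the control range of -0.09 to 0.08. The J-domain median was -0.03, -0.05 and -0.11, against -0.02 to 0.01 in controls. The median of all readable genes was 0.006, 3.5e-05 and -0.04 on the Klf4-deficient arrays. Over readable members, Klf4-deficient array 1 was the highest of its group in each class, and array 3 the lowest for Hsp70, chaperonin and J-domain genes. Over all 13 Hsp70 and all 12 chaperonin genes array 2 was the lowest of its group (0.06 and -0.02), as for Hsp90aa1.

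By median over readable markers, erythroid and macrophage lists exceeded all controls on Klf4-deficient arrays 2 and 3, and the NK list on all 3. Over readable markers, the erythroid median was 0.21, 1.24 and 2.31 over the 3 arrays of that group, against -0.49 to 0.31 in controls, and 13 of 15 measured erythroid markers had differences above 0. All 20 measured monocyte, macrophage and dendritic markers did, with medians of 0.15, 0.94 and 1.44 against -0.16 to 0.23. Their summed signal ran from 15041 to 19199 in controls. It was 17225, 17504 and 36128 in Klf4-deficient arrays, so by this sum only array 3 exceeded the controls. The summed signal of the erythroid markers ran from 37026 to 44881 in controls and from 44869 to 62023 in Klf4-deficient ones. Of the erythroid markers Epb42 and Rhd and of the macrophage markers Cybb and Itgax were above background on no array. The 4 readable of 10 NK and cytotoxic markers had medians of 0.43, 1.01 and 1.09 against -0.38 to 0.26. Of the 10, 6 had differences above 0, 3 below 0 and 1 at 0, and of the 4 readable 3 lay above 0. The summed signal of the 10 was 2662, 3539 and 3497 against 2139 to 3125 in controls, so array 1 lay inside the control range. Neutrophil markers were high in Klf4-deficient array 3 (1.42) and between -0.27 and 0.37 elsewhere. The 3 readable B lineage markers lay between -0.52 and 0.32, inside the control range of -0.53 to 0.53. Within the Klf4-deficient group the readable Hsp70 and J-domain medians were highest on array 1 and lowest on array 3. Hsp90aa1 and the median of all 13 Hsp70 genes were instead lowest on array 2 (0.16 and 0.06). The erythroid, macrophage and NK medians were lowest on array 1 and highest on array 3. The part of these cells in the members' values was not tested.

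**Figure D3:**
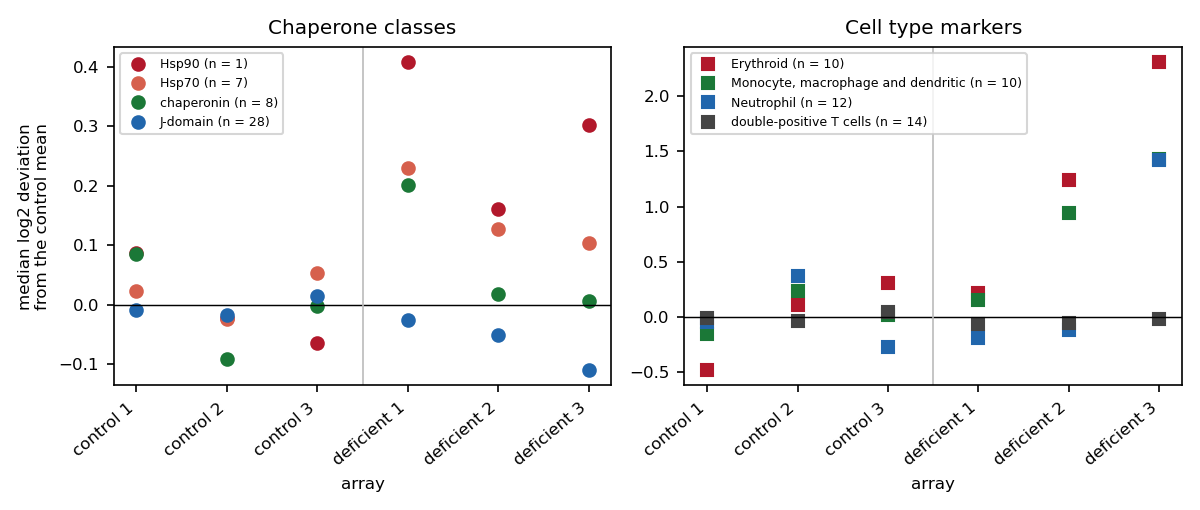
Median log2 deviation from the control mean (vertical axis) on each array, for readable genes of 4 chaperone classes (left) and 4 marker lists (right, on its own scale). Over these readable genes the Hsp70 and Hsp90 points of the 3 Klf4-deficient arrays are above all control points, which over all 13 Hsp70 genes does not hold for array 2 (0.06 against 0.09 on control array 1), while erythroid and macrophage markers climb to 2.31 and 1.44 on array 3.

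The wider chaperone network gave no call either. It held 59 listed genes beside the members and the endoplasmic reticulum, of which 56 were measured, and 0 of them passed in limma, with 4 higher and 1 lower by unadjusted p (under 0.05), beside 3.51% and 4.09% of all genes. Among the 4, Chchd3 was above background on no array and Cryab on 2 of 6. Of the 56 genes, 33 lay above 0 and 23 at or below it, with a median of 0.03. In the Hsp90 branch, Ahsa1, which stimulates the ATPase of Hsp90, differed by 0.13 ± 0.05, and Stub1, the ubiquitin ligase that sends chaperone clients to degradation, by -0.13 ± 0.05. Vbp1, a subunit of prefoldin, which hands actin and tubulin to CCT, differed by 0.34 ± 0.11. The adjusted p of these 3 lay between 0.581 and 0.649. Of 4 genes of the endoplasmic reticulum set beside them, Hsp90b1 differed by 0.32 ± 0.03 and Dnajb9 by 0.48 ± 0.15 (adjusted p = 0.309 and 0.571 in limma). Hyou1 differed by -0.24 ± 0.12 (adjusted p = 0.755 in limma), with signals of 44.4, 32.6 and 40 in controls against 31.6, 28.2 and 25.8, and Hspa5 was above background on 1 of 6 arrays.

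The size of these differences varied with the normalization. The 8 members on the higher side and the 8 on the lower side of the plot by array kept their sign under quantile normalization, cyclic loess, median centring and no normalization, and without any single array. With no normalization Hspe1 was at 0.17, Hsp90aa1 at 0.22, Hspa8 at 0.13 and Hsph1 at 0.47, each closer to 0, while Dnajc10 was at -0.33 and Dnajc6 at -0.40, farther from it. Cyclic loess moved the same genes the other way, to 0.29, 0.34, 0.25 and 0.60 and to -0.20 and -0.27. Since the genes were picked for their p, the kept signs are a description of these arrays.

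**Figure D4:**
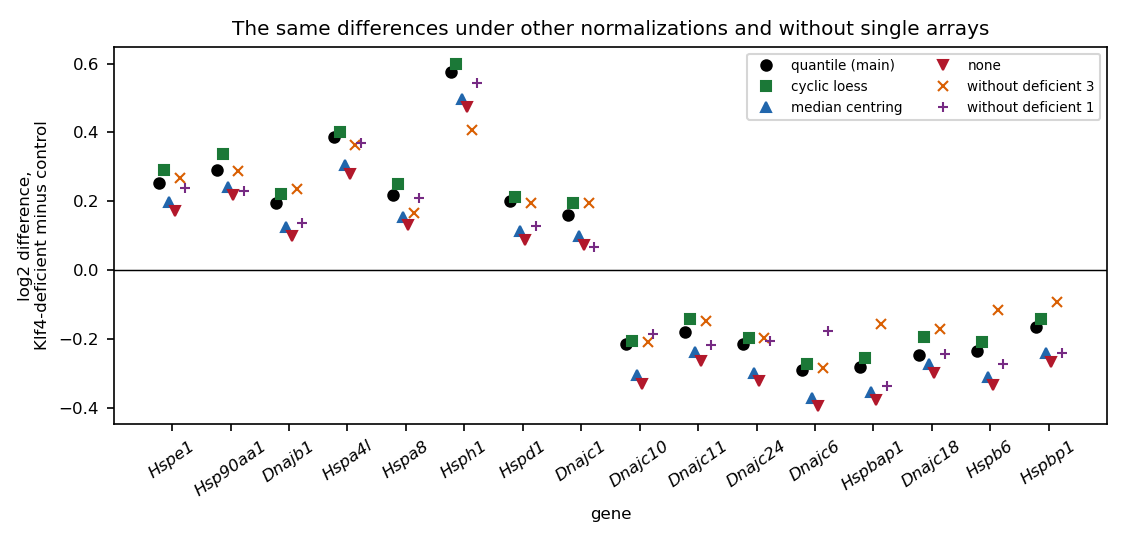
Log2 difference, Klf4-deficient minus control (vertical axis), of the same 16 genes under 4 normalizations and without Klf4-deficient array 1 or 3 (symbols). Median centring and no normalization place each gene lower than quantile normalization and cyclic loess do, and each of the 16 keeps its side of 0 under these 6 settings.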

How the data were processed

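The deposited table of all 6 arrays holds probe intensity, linear in scale, and the submitters' processing notes name BeadStudio without a version. Of these intensities, 31.3% to 34.2% per array are negative. No source used here states the background subtraction, any scaling by the authors, or a genome build. Members, gene lists and tests were chosen with earlier results of these data known.

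Negative intensities were raised to 0, and log2 of the intensity plus an offset of 16 was quantile normalized. For each of 19057 genes with 1 symbol (34885 of 45281 probes; 18 probes had several symbols and 10378 none) the probe with the highest mean was used. The background limit of an array was 3 times the SD of its negative values mirrored around 0. limma 3.58.1 in R 4.3.3 (lmFit, eBayes with trend) gave Klf4-deficient minus control differences, their standard errors (SE) and Benjamini-Hochberg adjusted p-values over all genes, with a threshold of 0.05. Lists are described by counts and medians without a test. The fit was tested on simulated data with changes larger than those of the readable members. They were set in bright genes, with the same noise on every array. Small or dim differences were therefore not covered. With 3 arrays a group, no exact permutation p can be under 0.1, and none is given. The number of arrays limits the precision.

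Named genes follow a rule: main genes of each class, up to 8 members a direction with the smallest unadjusted p among those above background on all arrays, and up to 4 network genes a direction. Hspa2, Hspa12b, Hspb8, Dnajb2, Dnajc2, Dnajc5g, Dnajc19, Hspg2, Hspb11, Cct6b, Cct8l1, Chchd3, Cryab, Hyou1 and Hspa5 were named after their values were seen. All 76 members matched RefSeq (GRCm38.p6) by gene ID, with 0 changed symbols. Protein sequences were not used here. Alternatives varied the normalization, offset, filter, moderation, probe choice, replicate block and the arrays left out.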

Additional observations from a re-analysis of the deposited data

How the results depend on the processing

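In limma 0 members were called under each of the 17 alternatives, with 3 to 10 at an unadjusted p under 0.05, while calls among all genes ran from 0 to 23. Members with all Klf4-deficient arrays higher numbered 7, but 4 under median centring, 3 unnormalized and between 8 and 13 without single arrays, where 5.48%, 4.17%, 3.09% and between 8.09% and 11.2% of all genes did. Those with all lower numbered 4, but 8 unnormalized and between 4 and 13 without single arrays, where 6.09%, 7.46% and between 9.31% and 11.2% of all genes did. Without an array fewer arrays have to separate. The median of all members was 0, against -0.054 under median centring, -0.079 unnormalized and between -0.045 and 0.0042 without single arrays. The Hsp70 median was 0.16, against 0.066 unnormalized, 0.029 with probes averaged per gene, 0.0027 with every probe and between 0.044 and 0.197 without single arrays. The J-domain median was -0.063, against -0.117 under median centring and -0.142 unnormalized. Over all genes the median was 0, against -0.0066 under median centring and -0.032 unnormalized. Over all readable genes it was -0.011, against -0.083 and -0.108. The cause of these shifts was not tested.

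Signs turned for genes near 0. Unnormalized, Dnaja2 was at -0.020, Dnaja3 at -0.019, Tcp1 at -0.078, Cct4 at -0.080 and Cct8 at -0.021. Under median centring Tcp1 was at -0.053 and Cct4 at -0.055, under cyclic loess Cct6a at 0.0026, and with probes averaged Tcp1 at -0.032 and Dnajc11 at 0.103. Without single arrays Hspa4 ran from -0.040 to 0.330, Hspa9 from -0.125 to 0.047, Dnaja2 from -0.055 to 0.233, Dnajb6 from -0.095 to 0.030, Cct4 from -0.073 to 0.075 and Cct6a from -0.131 to 0.035.

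The replicate number as a block changed no call: with the replicate block limma called 0 members and 0 of all genes, with 1318 genes at an unadjusted p under 0.05 against 1449 without it. Same-numbered arrays deviated from their group means with correlations of 0.135, -0.041 and -0.066 across genes. Differently numbered arrays gave -0.169 to 0.171. The labels give only the number, and these correlations cannot settle whether same-numbered samples share more than that.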
